A study of Mus musculus with 14 samples.

Results

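The condition described here was the Y1 mouse adrenocortical cell line 5 h after stimulation with 10% fetal bovine serum plus 10 ng/ml FGF-2, following 48 h of serum starvation. It was represented by 5 of the 14 samples of the series, chosen by their treatment and assay labels: 3 polyA RNA libraries and 2 chromatin immunoprecipitation libraries for acetylated histone H3 lysine 27 (H3K27ac). The comparison group, 3 RNA and 2 H3K27ac libraries, was starved for the same 48 h and received 10% serum alone for 5 h. The remaining 4 samples were input libraries and entered only through the background that the authors' peak lists give. All cells came from 1 tumour-derived line, and the labels do not say whether replicates were separate cultures, so p-values measure only the spread between these samples, which may be technical.

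FGF-2 is a secreted growth factor that binds FGF receptors on the cell surface with heparan sulfate as a cofactor. The receptors signal through Ras and the ERK kinases, which switch on immediate-early transcription factors and, after them, feedback inhibitors of the same pathway. Y1 cells derive from a mouse adrenal cortex tumour and make steroids. H3K27ac marks active promoters and enhancers.

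The FGF-2 RNA libraries held 11272041, 12696426 and 6403095 counts in genes, and those with serum alone 5625004 to 9101089. Levels are given as CPM, the reads of a gene scaled to a fixed total of reads in genes. In the FGF-2 libraries 0 counts were compatible with levels up to 0.266, 0.236 and 0.469 CPM (3 counts of the total, counting error only). CPM is not corrected for transcript length, so an order of genes by CPM is an order of reads and not of molecules. Over genes of at least 1 CPM, the 3 FGF-2 libraries had rank correlations of 0.993, 0.986 and 0.984 with each other. The third library had the lower correlations, 0.986 and 0.984 with the other 2. Of the 20 genes of largest relative spread at 100 CPM or more, it lay outside the other 2 in 18 and was highest in 10. The highest and the lowest of 3 libraries always lie outside the other 2, so a high count arises without any difference between libraries. The third library with serum alone likewise held more reads of several genes that were high with FGF-2, and its values are given beside them.

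The labelled cell type was checked against its defining genes. Nr5a1, the transcription factor that defines steroidogenic cells, stood at 61.5, 73.6 and 55.1 CPM, and Star, which brings cholesterol to the inner mitochondrial membrane, at 1831, 1530 and 2727 CPM. Among markers of other adrenal or contaminating cells, those of capsule and fibroblasts together took 0.203%, 0.276% and 0.193% of reads, below the 0.419%, 0.352% and 0.409% with serum alone. Of these 15 markers 4 had at least 1 CPM in each FGF-2 library, with Col1a1 at a mean of 1866 CPM and Col3a1 at 193 CPM, and 4 (Col1a2, Dcn, Lum and Tcf21) were listed at 0. Their part in the results was not tested. Markers of the medulla took 0.00231% (Th, Dbh, Hand2 and Npy among those at 0), those of endothelium and blood 0.00122%, and those of epithelium 0.000283% (Epcam, Krt5, Krt14 and Esrp1 at 0). Cyp21a1, the 21-hydroxylase, and Cyp11b2, the aldosterone synthase, were also listed at 0, while Cyp11b1, the 11-beta-hydroxylase, averaged 3.06 CPM and Hsd3b1 0.547 CPM. The cells therefore carried reads of Nr5a1 and Star, but few or none of the steroid enzyme genes Hsd3b1, Cyp11b1, Cyp11b2 and Cyp21a1. The ACTH receptor gene Mc2r and the regulator Nr0b1 also had few or no reads, while Cyp11a1, Gata6 and Mrap were read, as given below. The labelled identity was thus met by some of its defining genes and not by others.

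Promoters of 6 genes are shown because they mark the contrasts described below, between many reads and few and between much acetylation and none. Each is the RefSeq sequence of 300 bases (build GRCm38.p6), from 250 bases before to 50 after the start. Capitals mark matches, on either strand, to the searched motifs, which were AP-1 (TGANTCA), CRE (TGACGTCA), TATA box (TATAAA), ETS (CCGGAAG), SP (GGGCGG) and SF-1 (AAGGTCA). Eef2 (elongation factor 2, chr10:81176381-81176680, plus strand) and Itgb1 (integrin beta 1, chr8:128685404-128685703, plus strand) held an acetylated region at the start and very many reads. Inhba (activin beta A, chr13:16011601-16011900, plus strand) and Serpinb2 (a plasminogen activator inhibitor, chr1:107511173-107511472, plus strand) held many reads and no region. Caprin2 (an RNA-binding protein, chr6:148896188-148896487, minus strand) had the strongest acetylated region at any start shown, on a stretch of high input background. Cltc (clathrin heavy chain, chr11:86757518-86757817, minus strand) held a region but was listed at 0 counts.
Eef2: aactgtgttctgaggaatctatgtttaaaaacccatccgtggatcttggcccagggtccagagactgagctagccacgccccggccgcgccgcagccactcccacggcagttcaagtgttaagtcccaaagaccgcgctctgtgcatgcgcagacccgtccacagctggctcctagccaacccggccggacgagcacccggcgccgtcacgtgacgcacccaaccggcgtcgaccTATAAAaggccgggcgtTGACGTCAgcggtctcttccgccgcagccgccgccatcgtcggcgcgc
Itgb1: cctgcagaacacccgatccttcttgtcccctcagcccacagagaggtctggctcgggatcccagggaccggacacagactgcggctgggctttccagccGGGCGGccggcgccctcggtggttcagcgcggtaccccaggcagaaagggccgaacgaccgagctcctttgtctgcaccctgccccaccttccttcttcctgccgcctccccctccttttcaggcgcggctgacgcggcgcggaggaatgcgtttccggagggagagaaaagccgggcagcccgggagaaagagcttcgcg
Inhba: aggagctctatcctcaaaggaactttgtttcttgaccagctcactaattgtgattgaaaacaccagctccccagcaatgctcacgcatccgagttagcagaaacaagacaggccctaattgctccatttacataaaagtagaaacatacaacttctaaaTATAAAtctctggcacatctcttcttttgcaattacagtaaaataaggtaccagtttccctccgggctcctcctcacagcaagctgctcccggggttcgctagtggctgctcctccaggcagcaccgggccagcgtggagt
Serpinb2: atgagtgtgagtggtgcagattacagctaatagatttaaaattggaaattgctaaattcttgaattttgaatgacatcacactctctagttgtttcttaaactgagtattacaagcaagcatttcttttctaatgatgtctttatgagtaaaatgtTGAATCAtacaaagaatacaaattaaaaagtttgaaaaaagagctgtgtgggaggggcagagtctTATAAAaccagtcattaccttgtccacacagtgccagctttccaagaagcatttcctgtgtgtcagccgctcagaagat
Caprin2: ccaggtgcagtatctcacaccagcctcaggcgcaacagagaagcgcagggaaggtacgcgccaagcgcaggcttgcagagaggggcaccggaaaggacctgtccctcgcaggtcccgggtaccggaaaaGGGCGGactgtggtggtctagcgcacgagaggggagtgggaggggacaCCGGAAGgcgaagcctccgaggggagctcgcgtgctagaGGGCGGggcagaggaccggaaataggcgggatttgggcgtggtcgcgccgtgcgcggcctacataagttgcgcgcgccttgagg
Cltc: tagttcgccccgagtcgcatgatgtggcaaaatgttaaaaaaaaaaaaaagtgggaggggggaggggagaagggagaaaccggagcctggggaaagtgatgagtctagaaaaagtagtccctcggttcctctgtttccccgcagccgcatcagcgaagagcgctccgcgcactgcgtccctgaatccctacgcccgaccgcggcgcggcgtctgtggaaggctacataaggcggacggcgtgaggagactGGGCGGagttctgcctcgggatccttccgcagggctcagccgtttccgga
Eef2, Itgb1, Caprin2 and Cltc were rich in G and C (64.7%, 67.3%, 66.7% and 59.7%) with 27 to 34 CpG pairs each. The promoters of Inhba and Serpinb2 were 47.7% and 35.3% G and C with 7 CpG pairs and 1, and both held a TATA match; that of Serpinb2 also held an AP-1 match. A match is a description of letters and not of a bound factor.

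Reads were concentrated in few genes with FGF-2. The 10 most-read genes took 9.19%, 9.66% and 10.2% of all reads in genes (9.70% ± 0.53, SD, n = 3), against 4.65%, 4.66% and 5.79% for the 10 most-read genes with serum alone. The groups did not overlap. With 3 libraries against 3, an exact two-sided permutation test cannot go below p = 0.1. Reaching 50% of reads took 488, 475 and 448 genes with FGF-2 and 762, 748 and 658 genes with serum alone.

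Proteases of the plasminogen system were among the most-read genes. Plat, the tissue plasminogen activator, stood at 3424, 3757 and 4714 CPM against 283, 265 and 553 CPM (log2 fold change 3.76, SE 0.35, adjusted p = 0.000127, edgeR). Plau, the urokinase activator, stood at 1759, 2200 and 3619 CPM against 677, 508 and 1472 CPM; its call at a log2 fold change of 1.84 (adjusted p = 0.0248, edgeR) was lost without serum library 1 (1.65) and without FGF-2 library 3 (1.46). Plat and Plau both lay higher in every FGF-2 library than in any serum library. The share of all genes whose groups did not overlap was not counted. Such statements, here and below, therefore only describe the values of the named genes. Over all genes tested, 46.3% passed in edgeR. Serpinb2, an inhibitor of urokinase, stood at 2490, 1909 and 5050 CPM against 15.8, 31.7 and 409 CPM. No library overlapped, but Serpinb2 missed the threshold (adjusted p = 0.0535, edgeR), with the third library highest in both groups.

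Several adhesion genes were among the 30. Itgb1 and Itga5 encode the chains of the fibronectin receptor. Itgb1 stood at 7763, 8691 and 8768 CPM against 3910, 3561 and 5509 CPM with serum alone (log2 fold change 1.29, SE 0.21, adjusted p = 0.000974, edgeR). Itga5 stood at 5626, 4850 and 6325 CPM against 621, 599 and 1326 CPM (log2 fold change 3.04, SE 0.36, adjusted p = 0.0004, edgeR). In both genes every FGF-2 library exceeded every serum library, by more for the alpha chain than for the beta chain in these values; that difference between genes was not tested. Nrcam, a neuronal-type adhesion molecule of the immunoglobulin family, stood at 5279, 5270 and 5875 CPM against 810, 1138 and 1972 CPM (log2 fold change 2.39, SE 0.33). Cd44, the hyaluronan receptor, stood at 3605, 4440 and 4650 CPM against 1056, 970 and 2230 CPM (log2 fold change 1.90, SE 0.36). The heparan sulfate carrier Sdc1 stood at 2930, 2401 and 2452 CPM against 330, 495 and 704 CPM (log2 fold change 2.67, SE 0.28). All 3 rose with no overlap between groups (adjusted p = 0.000781, 0.00375 and 0.000147, edgeR). Chst11, which sulfates chondroitin chains, and Timp1, an inhibitor of metalloproteinases, rose as well, by 1.92 (SE 0.30) and 2.77 (SE 0.40) on the log2 scale, to means of 3871 and 5173 CPM.

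Inhba, whose product forms activin A, was the least even of the most-read genes. It stood at 2695, 2162 and 5621 CPM with FGF-2 (3493 ± 1862) and at 8.24, 12.6 and 192 CPM with serum alone. The third library was highest in both groups, and the groups did not overlap. Its log2 fold change of 5.94 (SE 1.58, adjusted p = 0.0298, edgeR) was 8.77 without serum library 3. It no longer passed when serum library 2 (5.41), or library 1 (6.11) or 3 (5.39) of the FGF-2 group, was left out. By reads it ranked 3240th with serum alone, the lowest serum rank among the 30. Emp1, an epithelial membrane protein, stood at 2287, 2063 and 3783 CPM against 92.8, 120 and 294 CPM (log2 fold change 4.33, SE 0.58, adjusted p = 0.00142, edgeR).

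Housekeeping genes were next to these in the list. Eef2 stood at 8568, 8284 and 8783 CPM against 9463, 9729 and 8582 CPM with serum alone, where the groups overlapped and the test was not passed (adjusted p = 0.239, edgeR). Eef1a1 averaged 3632 CPM, the chaperones Hsp90ab1 and P4hb 3615 and 3581 CPM, and Actb 3418 CPM. Hspg2, the basement membrane proteoglycan perlecan, stood at 4088, 3547 and 2629 CPM against 4367, 5460 and 6269 CPM with serum alone. It did not pass the test (log2 fold change -0.32, SE 0.21, adjusted p = 0.222, edgeR).

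Of all 10374 genes tested between FGF-2 and serum alone, 46.3% passed an adjusted p of 0.05 in edgeR, 22.1% higher and 24.2% lower with FGF-2. Of the 30 most-read genes, 22 passed, and all 22 were higher. These were picked by their level with FGF-2, which favours higher calls; of the 30 genes picked over all 6 libraries, 19 passed and 1 of them was lower. The 30 most-read genes of each group shared 15 members, 50.0% of each list. The share of higher calls over all genes was 47.7%, but 32.7% under upper-quartile scaling and 18.1% when library totals were the only scaling. The median log2 fold change moved from -0.02 to -0.16 and -0.36.

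**Figure D1:**
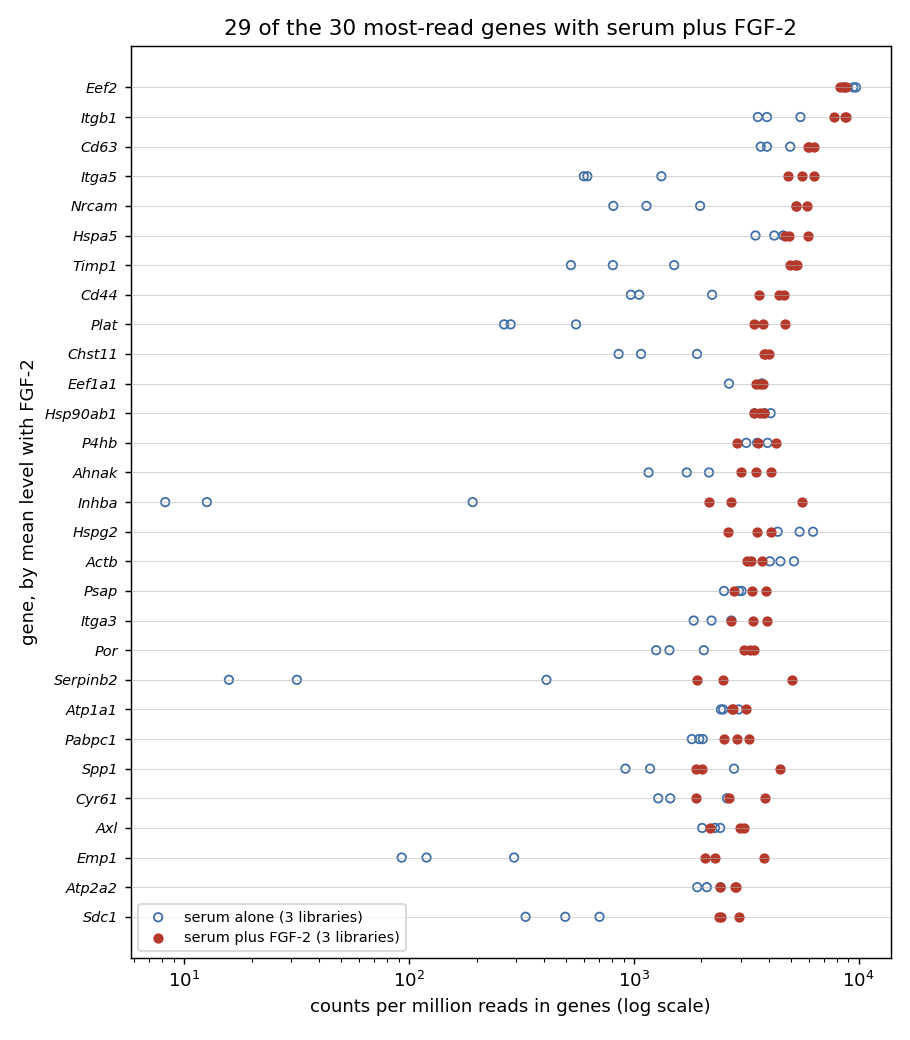
CPM (log axis) of 29 of the 30 most-read genes with serum plus FGF-2, 1 point per library, filled for serum plus FGF-2 (3 libraries) and open for serum alone (3 libraries). Eef2 overlaps between the groups, and Inhba, Serpinb2 and Emp1 lie furthest from their serum values.

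Genes for secreted proteins took 10.9%, 11.6% and 11.9% of reads in the 3 FGF-2 libraries (11.5% ± 0.54), against 5.53%, 5.71% and 7.30% with serum alone. The list held 366 listed genes, of which 169 had at least 1 CPM in each FGF-2 library and 84 were at 0. The groups did not overlap (exact two-sided permutation p = 0.1, the smallest possible). Of 188 members tested, 52 rose and 36 fell, beside 22.1% and 24.2% of all genes tested. With library totals alone, 42 members rose and 67 fell. The members' median log2 fold change was 0.02 beside -0.02 for all genes. More reads therefore came from a few members and not from the list as a whole.

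The classes of secreted proteins differed in their share. Proteases and their inhibitors took 5.78%, 6.53% and 6.99% of reads against 1.02%, 0.95% and 2.11% with serum alone. Of 30 members tested, 10 rose and 6 fell, beside 22.1% and 24.2% of all genes tested. The median log2 fold change of the 30 was 0.19 (-0.15 with library totals alone). Mmp19, a matrix metalloproteinase, stood at 1958, 2595 and 1922 CPM against 301, 290 and 353 CPM (log2 fold change 3.11, SE 0.18, adjusted p = 5.91e-06, edgeR). Its serum libraries lay close together, with the FGF-2 libraries well above.

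Growth factors and cytokines took 1.33%, 1.33% and 1.74% of reads against 0.766% ± 0.067 with serum alone, and 21 of 63 members tested rose while 15 fell (18 and 25 with library totals alone; median log2 fold change 0.09), beside 22.1% and 24.2% of all genes tested. Vegfa, the main growth factor of blood vessels, stood at 1741, 1840 and 2039 CPM against 167, 165 and 312 CPM (log2 fold change 3.45, SE 0.30, adjusted p = 7.48e-05, edgeR). Hbegf, a ligand of the EGF receptor, stood at 1033, 968 and 1593 CPM against 141, 117 and 330 CPM (log2 fold change 2.94, SE 0.49). Both rose with no overlap. Ligands that signal through gp130 varied widely in level. Il11 stood at 688, 579 and 876 CPM against 4.72, 4.90 and 25.4 CPM (log2 fold change 6.35, SE 0.81, adjusted p = 0.00223, edgeR), Clcf1 at 1015, 864 and 1341 CPM against 74.2, 120 and 225 CPM (3.27, SE 0.47), and Lif at 355, 413 and 409 CPM against 151, 114 and 182 CPM (1.73, SE 0.19). All 3 lay above every serum library, whereas Il6 and Ctf1, of the same family, averaged 0.324 and 1.72 CPM with FGF-2. Csf1, the macrophage growth factor, averaged 1133 CPM against 1519 CPM and did not pass the test.

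Other classes took no larger share. Matrix proteins took 2.61%, 2.58% and 2.24% of reads against 2.68%, 2.90% and 3.22%. The groups did not overlap, and FGF-2 was the lower (exact two-sided permutation p = 0.1, the smallest possible). This share is scaled to library totals, so the lower value does not show that the class fell. Of 49 members tested, 7 rose and 9 fell (5 and 24 with library totals alone), beside 22.1% and 24.2% of all genes tested. The median log2 fold change of the 49 was -0.18. Secreted antagonists took 0.653% ± 0.095 against 0.689% ± 0.017 (exact permutation p = 0.7), and hormones and carriers 0.448% ± 0.042 against 0.435% ± 0.034 (exact permutation p = 0.6). Within them, Fstl3, which binds activin, stood at 410, 353 and 290 CPM against 78.1, 79.3 and 171 CPM (log2 fold change 2.00, SE 0.36), and the neuropeptide precursor Vgf at 1139, 950 and 723 CPM against 94.7, 188 and 208 CPM (2.85, SE 0.33). Edn2, an endothelin, stood at 51.3, 38.9 and 39.4 CPM against 0.88, 3.06 and 2.31 CPM (4.75, SE 0.29). These 3 rose in lists whose summed share did not.

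The machinery that makes and exports proteins kept its share: endoplasmic reticulum and Golgi genes took 3.0% ± 0.18 of reads against 2.98% ± 0.14 with serum alone (exact permutation p = 0.9). Beside 22.1% higher and 24.2% lower over all genes tested, 15 of its 52 members tested rose and 0 fell. With library totals alone, 5 rose and 8 fell. The median log2 fold change of the members was 0.26 under TMM scaling. Among them Kdelr2, which returns chaperones to the endoplasmic reticulum, rose by 1.07 on the log2 scale. Translation factors took 2.70%, with 20 of 34 rising and 0 falling (6 and 1 with library totals alone), and 74 ribosomal protein genes had 22 rises and 0 falls (0 and 1 with library totals alone). Under upper-quartile scaling these 3 groups had 12, 12 and 4 rises and 1, 0 and 0 falls, in that order. With library totals alone, only translation factors still had more rises than falls, at a median log2 fold change of 0.001. The number of rises in all 3, and the direction of the other groups, thus depended on the scaling.

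**Figure D2:**
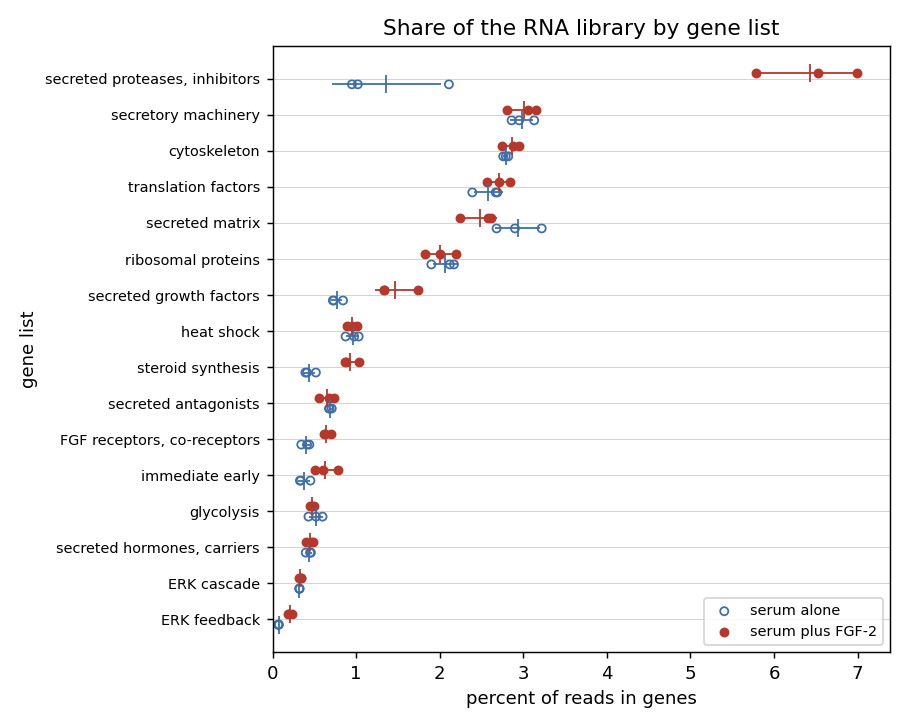
Percent of reads in genes taken by each gene list, 1 point per library, filled for serum plus FGF-2 (3 libraries) and open for serum alone (3 libraries), with the mean as a tick and the SD as a bar. Proteases and inhibitors lie near 6% with FGF-2 and at 0.95% to 2.11% with serum alone, while secretory machinery and translation factors overlap.

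Steroid and cholesterol genes took 0.874%, 0.867% and 1.04% of reads against 0.393%, 0.412% and 0.518% with serum alone. Of 17 members tested 7 rose and 4 fell (5 and 6 with library totals alone), beside 22.1% and 24.2% of all genes tested. The median log2 fold change of the 17 was 0.26. Star stood at 112, 135 and 301 CPM with serum alone, well below its FGF-2 levels given above (log2 fold change 3.80, SE 0.50, adjusted p = 0.00129, edgeR). Soat1, which esterifies cholesterol for storage, stood at 2128, 1976 and 2844 CPM against 600, 526 and 897 CPM (2.11, SE 0.26), and Por, the electron donor of the microsomal cytochromes P450, at 3086, 3428 and 3283 CPM against 1258, 1441 and 2049 CPM (1.37, SE 0.21). Cyp11a1, which makes pregnenolone from cholesterol, stood at 49.4, 53.3 and 92.3 CPM against 149, 119 and 149 CPM. Cyp11a1 was thus the lower with FGF-2 in every library, while Star, Soat1 and Por were the higher.

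Regulators and receptors of adrenal cells took 0.132% of reads against 0.136%, with 5 rising and 4 falling of 18 tested (3 and 5 with library totals alone; median log2 fold change 0.07), near the 22.1% and 24.2% of all genes tested. Crhr2, a receptor of the corticotropin-releasing factor family, stood at 285, 177 and 279 CPM against 1.43, 3.43 and 4.27 CPM (log2 fold change 6.75, SE 0.37, adjusted p = 2.03e-05, edgeR). Its groups did not overlap. Mc2r, the ACTH receptor, averaged 0.112 CPM although 10 acetylated regions carried its name, and Nr0b1 and Mrap2 were listed at 0. Gata6 and Mrap averaged 94.0 and 91.1 CPM.

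Among the receptors for FGF itself, Fgfr1 was the one with most reads, at 199, 200 and 169 CPM. Fgfr2 and Fgfr3 averaged 0.833 and 0.194 CPM. Fgfr4 stood at 0.53, 0.71 and 0.62 CPM against 6.37, 4.29 and 4.27 CPM with serum alone (log2 fold change -2.65, SE 0.33, adjusted p = 0.000218, edgeR), a fall from an already low level. Klb, the co-receptor of endocrine FGFs, and Nrp1 were listed at 0. Among co-receptors Sdc4 stood at 2726, 2479 and 2545 CPM (1.41, SE 0.19), and Nrp2 at 135, 101 and 77.3 CPM against 458, 642 and 573 CPM (-2.08, SE 0.20). FGF receptors and co-receptors together took 0.699%, 0.624% and 0.612% of reads against 0.344%, 0.413% and 0.440%, with no overlap. However, of the 13 tested only 2 rose and 4 fell, beside 22.1% and 24.2% of all genes tested. The median log2 fold change of the 13 was -0.10.

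Feedback inhibitors of the ERK pathway took 0.203% of reads against 0.0713%, and 14 of 21 tested rose while 3 fell (13 and 4 with library totals alone). Their median log2 fold change was 1.58. Over all genes tested, 22.1% rose and 24.2% fell. Dusp6, the ERK phosphatase, stood at 219, 264 and 325 CPM against 35.6, 36.3 and 43.2 CPM (log2 fold change 3.16, SE 0.19, adjusted p = 5.96e-06, edgeR). Spred2 stood at 356, 287 and 293 CPM (2.53, SE 0.14), and Spry2 and Spry4, which block Ras activation, averaged 215.5 and 130.3 CPM (1.97 and 2.35). These 4 feedback genes rose. Immediate-early genes took 0.630% ± 0.14 against 0.373%, with 16 of 26 rising and 2 falling and a median log2 fold change of 1.13. Egr1 stood at 532, 566 and 605 CPM against 107, 171 and 117 CPM (2.45, SE 0.18), while Fosl2, an AP-1 subunit, stood at 151.8, 152.4 and 152.1 CPM against 405, 432 and 352 CPM (-1.04, SE 0.10, adjusted p = 6.51e-05, edgeR). These AP-1 and Egr genes did not all move the same way. The kinases and adaptors of the cascade kept a share of 0.331% against 0.322%, and Map2k2 was listed at 0.

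Of the 24465 genes listed, 9872 (40.4%) had at least 1 CPM in each FGF-2 library, 100 had over 1000 CPM in each, and 9558 (39.1%) had 0 counts in all 3. The remaining 5035 lay between. The pooled 0 allows up to 0.0988 CPM. The sensory families filled part of the list at 0, with 1095 of 1125 olfactory receptor genes and 326 of 338 vomeronasal ones. Of 45 lineage factors of other tissues, 22 were at 0, among them Pou5f1, Nanog and Sox2. Sox9, a factor of cartilage and progenitor cells, stood instead at 144, 134 and 194 CPM against 6.15, 5.76 and 11.6 CPM (log2 fold change 4.72, SE 0.31, adjusted p = 3.36e-05, edgeR), and Runx2, a bone factor, at 151, 158 and 169 CPM against 50.7, 55.8 and 72.7 CPM (1.75, SE 0.16). Of 39 Hox genes, 18 had at least 1 CPM. Among 21 tested, 12 fell and 1 rose (16 and 0 with library totals alone), beside 24.2% and 22.1% of all genes tested. The median log2 fold change of the 21 was -0.90.

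Most expressed genes were shared with serum alone: 9634 had at least 1 CPM in every library of both groups. Only 80 genes had at least 1 CPM in each FGF-2 library and less in each serum library, and 150 the reverse. Prdm1, a transcriptional repressor, stood at 14.1, 9.22 and 17.5 CPM with FGF-2 and had 0 counts in all 3 serum libraries, at least 104-fold higher against 3 counts over the pooled serum group. Btc, a ligand of the EGF receptor, stood at 13.7, 10.8 and 23.3 CPM, and the gel-forming mucin Muc5ac at 11.1, 8.98 and 16.7 CPM. In the other direction Akap6, a kinase anchor, averaged 0.87 CPM against 15.8, 9.80 and 11.4 CPM with serum alone (log2 fold change -3.45). The highest mean among the 80 genes was that of Btc, 15.9 CPM. In bulk RNA, fewer cells with a transcript and less of it per cell cannot be told apart.

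Several genes that most cells use were also listed at 0 in all 3 FGF-2 libraries, among them Map2k2, Cltc, Insr, Sar1a and Tmsb4x. Cltc carried a promoter signal of 681 normalised reads, and the reason for these 0s was not tested. These genes were picked after looking at the values.

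The deposited H3K27ac table held 40772 regions, assigned to 13028 gene symbols, with a median of 2 regions per symbol. Its values are normalised reads, in which 1.0 stands for 1 read of the second FGF-2 library. The 2 FGF-2 libraries had 12447135 and 11840994 fragments and a rank correlation of 0.944 over regions. The 12484 regions within 1 kb of a start held 55.2% and 58.5% of the signal, the 12992 intronic regions 18.3% and 16.6%, and the 10221 distal intergenic regions 17.1% and 15.8%. Regions with a called peak in both FGF-2 libraries numbered 32626 and held 97.1% and 97.5% of it. Promoter regions thus held more signal than intronic and intergenic regions together, from fewer regions.

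The loci of most summed H3K27ac clustered on chromosome 6. Sspn (sarcospan) had 35988 and 35747 normalised reads in the FGF-2 libraries against 37145 and 28929 with serum alone, over 18 regions. The noncoding 3010003L21Rik had 28640 and 32613 in 1 region of 4461 bases (chr6:148942585-148947045). Stk38l, a kinase, had 19354 and 15816. Caprin2 had 14702 and 14956 against 9304 and 7463, nearly all of it in the region that covers the promoter shown (chr6:148894504-148897725). Of the 30 leading loci, 14 lay in 1 stretch of that chromosome that holds Sspn and Caprin2 and is no longer than 5 Mb.

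In the same stretch the input background was high. It had a median of 24.7-fold and 24.8-fold the genome-wide level over 179 regions, as computed from the authors' peak lists, against 1.04-fold and 1.06-fold over the other 38498. At the strongest regions it was 78.9-fold (3010003L21Rik), 61.2-fold (Caprin2) and 44.9-fold (Sspn) in the first FGF-2 library. The stretch held 192 regions with 5.04% and 4.86% of all H3K27ac signal. Once regions were divided by their input background, 12 of the 30 loci remained among the leading 30. The 30 leading loci held 6.87% and 6.64% of the signal as deposited, and the 30 that led without regions of at least 5-fold background held 3.51% on average.

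**Figure D3:**
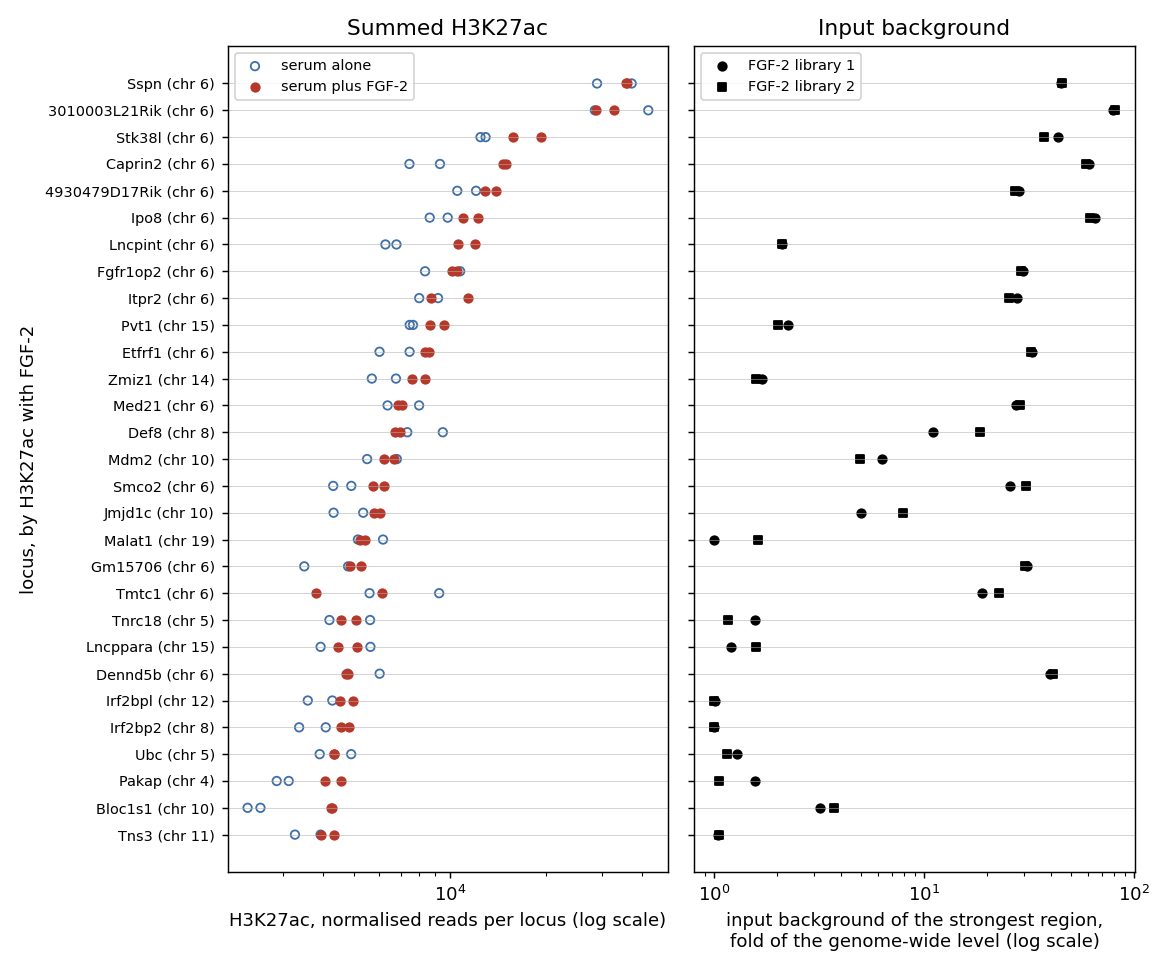
Leading H3K27ac loci with serum plus FGF-2 (29 of the first 30). The left panel gives summed H3K27ac in normalised reads (log axis), 1 point per library, filled for serum plus FGF-2 and open for serum alone (2 libraries each); the right panel gives the input background of each locus' strongest region as fold of the genome-wide level (log axis) in both FGF-2 libraries. Sspn, 3010003L21Rik, Stk38l and Caprin2 lead, at backgrounds of 43.4-fold to 78.9-fold in library 1, while Lncpint stands at 2.09-fold.

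**Figure D4:**
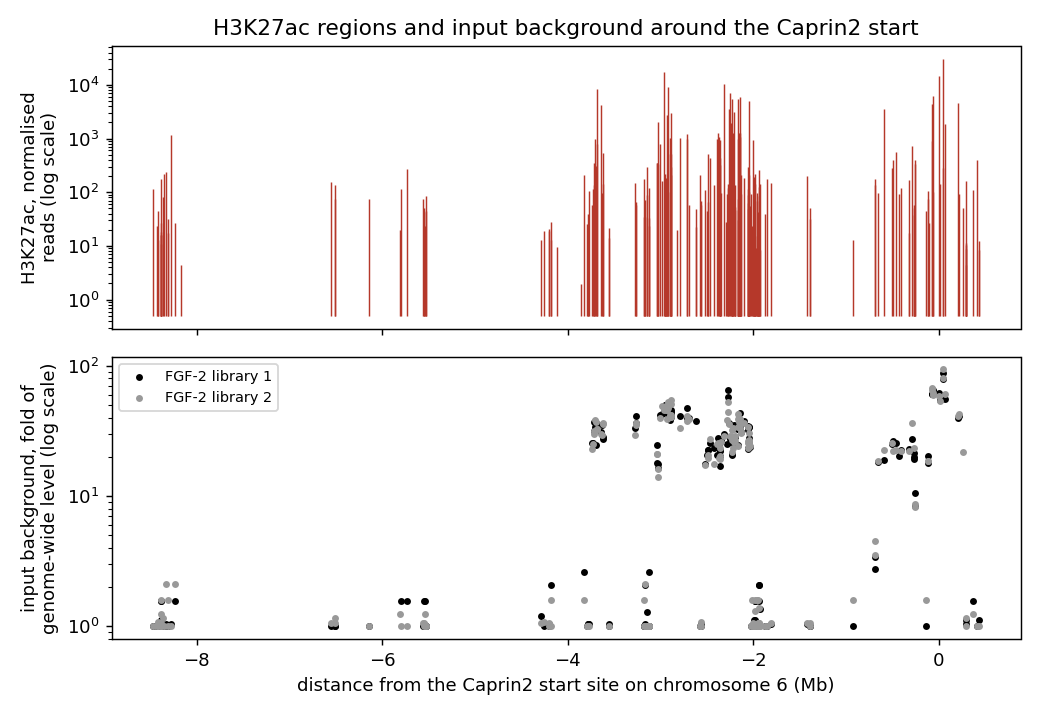
H3K27ac regions around the Caprin2 start on chromosome 6, by distance in Mb. The upper panel gives each region's mean FGF-2 signal in normalised reads (log axis) and the lower panel its input background in both FGF-2 libraries as fold of the genome-wide level (log axis). The region of 3010003L21Rik lies 0.0486 Mb from the Caprin2 start and is the highest, at 30627, and the background over most of the stretch lies well above 1.

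The 40 listed genes of this stretch took 0.678%, 0.636% and 0.641% of RNA reads with FGF-2 and 1.08%, 1.14% and 0.942% with serum alone, and 8 were at 0. Of 22 tested, 8 were higher and 7 lower with FGF-2, beside 22.1% and 24.2% of all genes. Sspn averaged 671 CPM against 2740 CPM (log2 fold change -1.69, adjusted p = 3.03e-05, edgeR), and Tm7sf3, a membrane protein, 972 CPM against 2400 CPM (-0.96). Rassf8, of the Ras-association family, averaged 233 CPM against 63.1 CPM (2.22). Sspn ranked first by summed H3K27ac signal as deposited, but 593rd after division by input background. Its RNA was lower with FGF-2 than with serum alone.

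Outside regions of high background the leading locus was Lncpint, a long noncoding RNA gene on chromosome 6 but outside that stretch, with 11984 and 10625 normalised reads over 14 regions against 6794 and 6275 with serum alone. Pvt1, the noncoding neighbour of Myc, followed with 9611 and 8629 over 56 regions, and Zmiz1, a transcriptional co-regulator, with 8335 and 7597. Malat1, a nuclear noncoding RNA, had 5240 and 5431. Bloc1s1, a subunit of a lysosome-related complex, had 4263 and 4240 against 2545 and 2319. Its 1 region had an input background of 3.18-fold and 3.70-fold, under the 5-fold cut. After division by input background Bloc1s1 ranked 228th, against 29th as deposited. Lncpint, Pvt1, Zmiz1 and Malat1 ranked 1st, 2nd, 5th and 6th after that division. The order by acetylation was not the order by reads. As deposited, 0 of the 30 most-read genes were among the 30 leading loci, and 2 (Hspg2 and Ahnak) among the leading 60. Outside regions of high background, 1 (Ahnak, 27th) was among the leading 30. There were 13028 loci to rank, so these small counts do not measure how far the orders agree.

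Over all loci, 981 of 13028 (7.53%) passed an adjusted p of 0.05 between FGF-2 and serum alone (limma on log2 of the summed signal plus 1), 757 higher and 224 lower. Of the 30 leading loci, 5 passed and 26 were also among the leading 30 with serum alone. Caprin2 (log2 fold change 0.83, SE 0.17, adjusted p = 9.4e-05, limma), Lncpint (0.79, SE 0.18) and Bloc1s1 (0.81, SE 0.19) rose. Tmtc1, on the high-background stretch, had 3808 and 6110 against 9251 and 5596 (-0.58, SE 0.18, adjusted p = 0.025, limma), with overlapping libraries. Its call was lost after scaling to equal totals, with either replicate block, with edgeR on recovered reads and without any 1 of the 4 libraries (-0.94 to -0.21). Further down, Smndc1 (1.28, SE 0.20), Sept9 (1.08, SE 0.19) and the ERK inhibitor Spred2 (0.77, adjusted p = 0.00225, limma), whose RNA also rose, were higher. With 2 libraries per group, whether a locus passed depended on which libraries were in the fit. Fewer loci passed without either FGF-2 library, and more without either serum library, than with all 4. Such a fit assumes that the lone library varies like the other group. Caprin2, Lncpint, Bloc1s1, Sept9, Smndc1 and Spred2 kept log2 fold changes of 0.84, 0.70, 0.80, 1.03, 1.19 and 0.76 without FGF-2 library 1 but did not pass. Without FGF-2 library 2, Smndc1 (1.36) passed, while Caprin2, Lncpint, Bloc1s1, Sept9 and Spred2 did not (0.82, 0.88, 0.81, 1.14 and 0.78). Higher calls made up 77.2% of the calls, 47.1% after scaling to equal totals and 57.3% with edgeR on recovered reads.

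Within the FGF-2 condition, genes with more promoter H3K27ac tended to have more reads. Over 10153 genes with a region within 1 kb of a start, mean CPM and promoter signal had a rank correlation of 0.342, and of 0.421 over the 8151 of them with at least 1 CPM. Genes are not independent replicates, and both assays share the cells, copy number and gene annotation, so this is a description. Across protein-coding genes, the 10516 with no promoter region had a median of 0 CPM, and 14.1% of them reached 1 CPM. In the lowest decile of promoter signal the median was 4.57 CPM and 67.6% reached 1 CPM, in the fifth decile 26.7 CPM and 85.2%, and in the highest 84.8 CPM (quartiles 22.9 and 231) and 86.8%. The step from no region to the lowest decile was thus larger, in the share of genes detected, than that across all deciles.

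**Figure D5:**
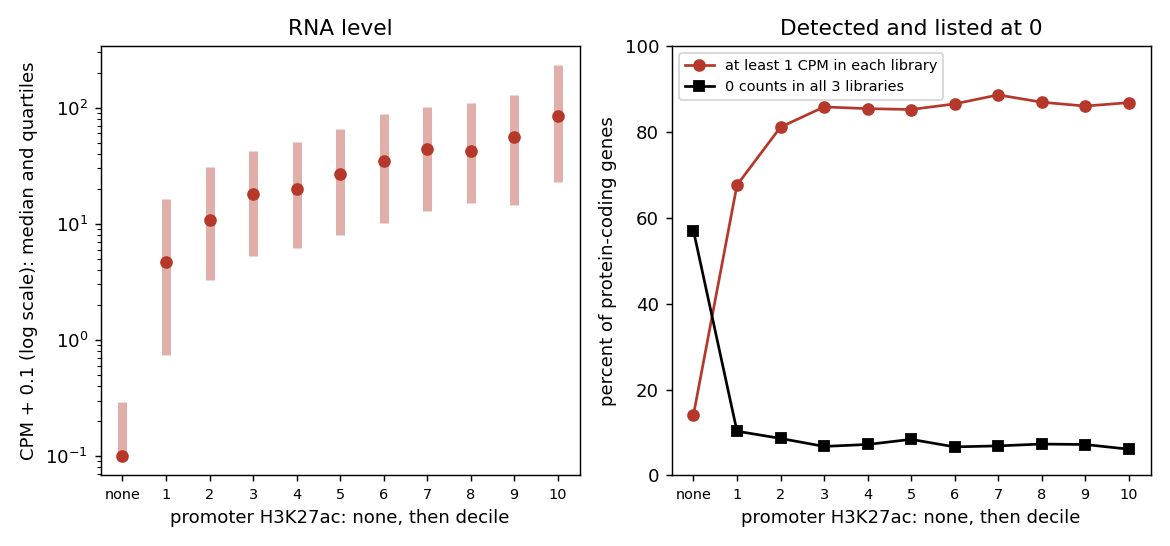
RNA of protein-coding genes with serum plus FGF-2 by promoter H3K27ac: no region, then deciles from lowest to highest. The left panel gives the median and quartiles of CPM plus 0.1 (log axis), and the right panel the percent of genes with at least 1 CPM in each library and the percent with 0 counts in all 3. The median rises from 4.57 CPM in the lowest decile to 84.8 CPM in the highest, and 57.0% of genes with no promoter region are at 0.

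Exceptions lay on both sides. Of the genes with at least 1 CPM, 82.6% had a promoter region under their own symbol. By position alone, 91.6% of the 7897 such genes with a RefSeq promoter sequence had a region within 1 kb of the start, and some of these regions carry a neighbour's name. The region at the start of Eef2, with 2595 normalised reads, is listed under Snord37, and that of Tln1, a link between integrins and actin, with 859, under Creb3. Inhba and Serpinb2 had no region at the start under any symbol, and both are shown among the promoters above. They were the only ones without a region among the 22 of the 30 most-read genes that had a promoter sequence.

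On the other side, 691 protein-coding genes had a promoter region but 0 counts in all 3 FGF-2 libraries, and 632 of them were at 0 in all 6 libraries. Those of most signal among all genes under 1 CPM included the microRNA genes Mirlet7i with 3590 normalised reads, the first, and Mir21a with 1790, and the read-through gene Clcf1-pold4 with 1854. The Mirlet7i region had an input background of 4.98-fold and 4.33-fold in the FGF-2 libraries. Its locus ranked 39th by summed signal as deposited and 625th after division by input background. Mirlet7i is listed only from base 122985640 to 122985724, so its count says little on whether that promoter was silent. Clcf1 itself averaged 1073 CPM and had no region under its own symbol. Whether the region named Clcf1-pold4 belongs to Clcf1 was not tested. Rps6ka3, an ERK-activated kinase, had 1380 and Id1, an inhibitor of differentiation factors, 1224, both at 0 counts. Zeb2, a repressor of epithelial genes, had 1022.

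Genes at 0 with a region at the start differed from the others at 0 in base composition. The 742 genes at 0 with a region at the start had a median of 60.7% G and C and 21 CpG pairs in 300 bases, near the 61.7% and 22 of the 7897 genes of at least 1 CPM. The 5865 at 0 without a region had 47.7% and 3. A TATA match was found in 7.55% of the former and 22.7% of the latter, and an ETS match in 19.9% and 2.64%, beside 12.8% and 12% of all 18101 promoters. The 664 genes of at least 1 CPM without a region, the group of Inhba and Serpinb2, had 55.0% and 7, and 9.64% of them held an AP-1 match, beside 10.2% of genes at 0 without a region and 7.42% of all promoters. Among the 22 most-read genes with a promoter sequence, 4 (18.2%) held an AP-1 match and 17 (77.3%) an SP match, beside 7.42% and 46.7% of all promoters and 5.07% and 67.5% of genes of at least 1 CPM.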

How the data were processed

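The authors deposited raw counts of reads per gene symbol, made with HTSeq. Reads outside genes (37.0% to 43.2% of listed reads) were left out of library sizes. H3K27ac values are a signal per region and library, taken from the authors' deposited region table with its gene symbols. The deposited MACS2 peak lists give pileup signal, fold (a ratio over background) and −log10 p and q per peak, per the file headers. Tools named in the submitters' processing notes were STAR 2.5.2a, HTSeq 0.10.0, MACS2 2.2.6, SAMtools 1.1, bedtools 2.15.0, bcl2fastq, ChIPseeker, DiffBind and DESeq2, with build mm10. Gene annotation and strandedness of counting were not given in the sources used here; overlapping and antisense genes are therefore uncertain.

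CPM used reads in genes alone. Contrasts used edgeR 4.0.16 (quasi-likelihood, robust, TMM, filterByExpr) for genes and limma 3.58.1 (trend) for summed H3K27ac per symbol plus 1, run in R 4.3.3 at a Benjamini-Hochberg adjusted p of 0.05 and tested on simulated data. The fold changes use TMM scaling and so lie above ratios of the CPM values printed. Input background was (pileup + 1) / fold - 1, over its lowest value. Alternatives covered scaling, filters, pseudocounts, replicate blocks, DESeq2 1.42.0 and left-out libraries.

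Named genes were the 30 most-read, up to 6 of most CPM per list, listed zeros of identity lists, the 20 leading loci, the 10 strongest regions, and 10 genes on each side of the CPM and promoter comparison. Genes named beyond these, including those with large changes, were chosen after their values were seen. Members and lists were chosen with earlier results of these data known, and the secreted lists were edited after the files had been opened. Some genes are not reported here.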

Additional observations from a re-analysis of the deposited data

How the results depend on the processing

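Calls of genes between FGF-2 and serum alone numbered 4807 and stayed within 1.5 times of that under each alternative, from 3516 without serum library 2 to 5710 with library totals alone; DESeq2 gave 4525. Without 1 library each, the range was 3516 to 4957. Of 64 genes with a tested log2 fold change, 4 lost their call with library totals alone (Hspa5, Caprin2, Ltbp3 and Brd2), 0 with upper-quartile scaling, 2 without the filter on low counts (Inhba and Plau), 0 with DESeq2 and up to 7 without 1 library. None reversed under these alternatives. Deviations of RNA libraries of the same replicate number correlated at -0.10 and 0.07 for numbers 1 and 2, and at 0.38 for number 3. The numbers thus did not pair the RNA libraries evenly, and the libraries numbered 3 shared part of their deviation. A replicate block gave 5017 gene calls and 495 H3K27ac loci, against 981 loci without it. H3K27ac deviations correlated at -0.41, and a crossed pairing, added after seeing the data, gave 1362 loci. H3K27ac loci called numbered 2335 after scaling to equal totals, 2164 with edgeR on recovered reads (100.0% whole within 0.02 reads; added after seeing the data) and 100 to 2870 without 1 library each.

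The 10 most-read genes took 5.94% of all listed reads (without 1 library each, 9.43% to 9.95%). Secreted-protein genes took 7.03% of all listed reads and 9.0% without matrix genes (11.3% to 11.8%). The leading 30 H3K27ac loci took 5.26% when ranked per covered kb, 3.51% without high-background regions and 3.14% after division by input background (6.64% to 6.88%). The rank correlation of CPM and promoter H3K27ac was 0.355 within 3 kb, 0.336 with the highest region alone, 0.421 over genes of at least 1 CPM, 0.392 with all regions, 0.313 at RefSeq starts and 0.339 to 0.343 without 1 library each. The alternatives that divide by input background or use RefSeq starts were added after seeing the data. Genes of at least 1 CPM ranged from 8128 at 5 CPM to 10455 at 0.5 CPM. Levels per coding length and a search for signal peptides were not run, since no transcript or protein sequences were used here. Leaving out mitochondrial genes gave no value, as none is listed under an mt- symbol. Depth limited low genes most in the third library of each group.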
